A study of Homo sapiens with 9 samples.

Results

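The genes described here encode the aminoacyl-tRNA synthetases of the cytosol and of the mitochondrion, with the scaffold proteins that hold several of the cytosolic enzymes together. They were chosen by name: rows of the deposited table were kept where the Ensembl gene ID, without its version, mapped to a listed symbol. This gave 38 of the 15354 rows, of which 19 encode cytosolic enzymes, 16 mitochondrial enzymes and 3 scaffold proteins, and all 38 passed the filter on low values (at least 1 CPM, counts of a gene scaled to a common library total, in at least 3 of the 9 libraries).

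RNA-seq was performed in HCT116, a long-established line from a human colorectal carcinoma, to learn which transcripts change when the long non-coding RNA SNHG5 is depleted. The 9 libraries form 3 groups of 3, which the methods describe as biological replicates: cells given a commercial non-targeting control siRNA, cells given SNHG5 siRNA A and cells given SNHG5 siRNA B, each by reverse transfection at 25 nM. All are the same line and none is untransfected, so every comparison is between siRNAs. The labels do not say which of the study's named siRNAs is A and which is B. 

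Library totals ran from 15566530 to 23277549 reads. The targeted gene went against the labels: SNHG5 stood at 31.3, 22.1 and 26 scaled CPM in the control libraries, at 71.7, 58.8 and 67.4 in those labelled siRNA A and at 46.2, 50.2 and 46 in those labelled siRNA B. It was thus higher, not lower, in all 6 (siRNA A against control log2 fold change 1.29, SE 0.13, adjusted p = 1.83e-05, and siRNA B against control log2 fold change 0.83, SE 0.13, adjusted p = 0.000596, limma), and the groups are called by their labels throughout. The SNHG5 row overlaps a protein-coding gene (ENSG00000271793) on its own strand, and how shared reads were counted is not stated. By qRT-PCR, the paper reports lower SNHG5 with each of its siRNAs. The epithelial keratin genes KRT8, KRT18 and KRT19 and the epithelial adhesion gene EPCAM were high in every library. The epithelial markers CDH1, VIL1 and CDX2 were much lower. In control CDH1 stood at 32.8, 35.6 and 43.6 scaled CPM, VIL1 at 20.8, 19.7 and 22.3 and CDX2 at 14.7, 13.3 and 14.6. The fibroblast collagen gene COL3A1 was at most 0.160 scaled CPM. COL1A1, also a fibroblast collagen gene, stood at 17.1, 15.3 and 17.5 scaled CPM in control, 13.8, 11.1 and 10.8 with siRNA A and 9.08, 9.86 and 8.71 with siRNA B, lower in both. Of 7 epithelial marker genes, 3 rose (KRT8, KRT18, KRT19) and 2 fell (EPCAM, CDX2) with siRNA A, and 2 rose (KRT8, VIL1) and 1 fell (CDX2) with siRNA B. The part of these shifts in the results below was not tested, and in bulk RNA fewer cells of a kind and less RNA per cell cannot be told apart.

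Aminoacyl-tRNA synthetases join each amino acid to its own transfer RNA, which makes them the enzymes that put the genetic code into effect. Human cells make a separate set for mitochondrial translation from nuclear genes, except that GARS1 and KARS1 each give rise to both a cytosolic and a mitochondrial enzyme and that mitochondrial glutamine tRNA is charged indirectly through EARS2. GARS1 and KARS1 are counted here with the cytosolic genes only, in every count, median, sum and ratio, so the contrast of compartments is not a clean one for them. Several cytosolic enzymes are bound in a multi-synthetase complex on AIMP1, AIMP2 and EEF1E1, and many cytosolic synthetase genes are known targets of ATF4, the transcription factor of the amino acid response.

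The cytosolic and the mitochondrial set moved apart in the libraries labelled siRNA A. Relative to control, 10 of the 19 cytosolic genes rose, 2 fell and 7 did not pass the test (adjusted p under 0.05, limma, over all 13893 genes tested), with a median log2 fold change of 0.30. Of the 16 mitochondrial genes 1 rose, 6 fell and 9 did not pass, with a median of −0.23. Over all genes tested the median was −0.022, 24.0% were called higher and 27.5% lower. Among the scaffold genes EEF1E1 rose, AIMP2 fell and AIMP1 did not pass. In the libraries labelled siRNA B the cytosolic set was split, with 6 genes higher, 6 lower and 7 not called (median 0.041), while 0 of the 16 mitochondrial genes rose, 4 fell and 12 did not pass (median −0.21). The background there was 15.5% of genes higher and 18.4% lower, with a median of 0.0030. No scaffold gene was called with siRNA B. Both comparisons use the same 3 control libraries and are not independent of each other.

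These directions are relative to the TMM scale (trimmed mean of M values), on which CPM was divided by a library factor. That factor had a mean of 1.14 over the control libraries, 0.885 over those labelled siRNA A and 0.989 over those labelled siRNA B. With library totals alone the median of all genes moved to −0.34 (siRNA A) and −0.18 (siRNA B). The cytosolic median then lay at −0.072 (siRNA A) and −0.17 (siRNA B), so its sign flipped in both comparisons. Relative to the median of all genes, the cytosolic median with siRNA A was 0.27 with totals and 0.32 on the TMM scale, and with siRNA B it was 0.014 and 0.038. The mitochondrial median relative to all genes was −0.24 and −0.21 with siRNA A, and −0.23 and −0.21 with siRNA B. With totals alone, 4 of the 10 cytosolic rises with siRNA A (YARS1, GARS1, MARS1 and SARS1) and 1 of the 6 with siRNA B (AARS1) were called.

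**Figure D1:**
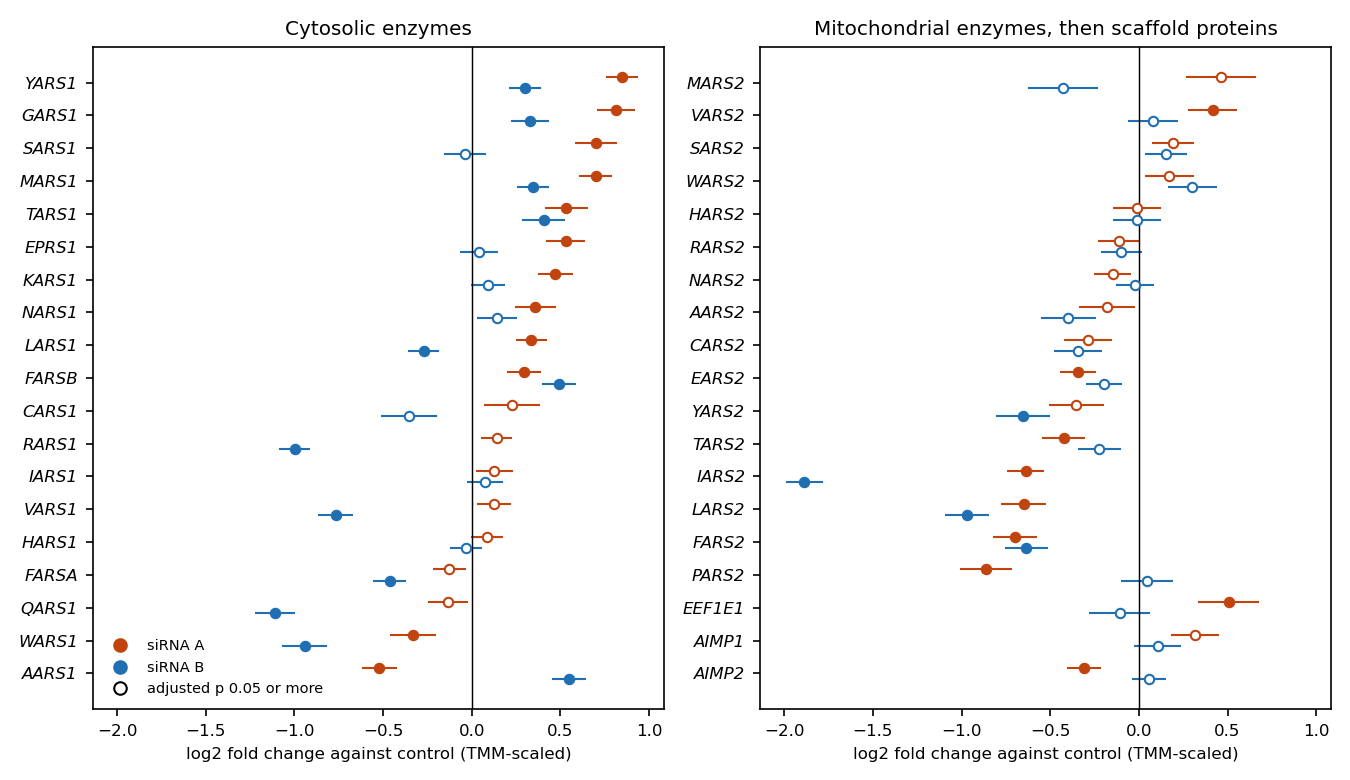
Log2 fold change against control of every gene (TMM-scaled, points with bars of 1 standard error), siRNA A in orange and siRNA B in blue, with cytosolic enzymes on the left and mitochondrial enzymes followed by scaffold proteins on the right. Filled points passed an adjusted p of 0.05 (limma); on the left 10 orange points are filled to the right of 0, and on the right IARS2 lies farthest to the left at −1.89 with siRNA B.

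The difference between the compartments does not depend on the scaling when it is taken within a library. The summed CPM of the cytosolic genes divided by that of the mitochondrial genes was 7.32, 6.53 and 7.17 in the control libraries, 11.8, 10.3 and 10.7 in those labelled siRNA A and 10.3, 10.5 and 10.7 in those labelled siRNA B. All 6 libraries given an SNHG5 siRNA lay above all 3 control libraries. With every gene weighted equally, the ratio of geometric means was 8.31, 7.49 and 8.11 in control, 12.2, 10.7 and 11.1 with siRNA A and 9.37, 9.1 and 9.46 with siRNA B, again without overlap between the control libraries and either group. As deposited, without TMM, the control libraries had a cytosolic sum of 4489 ± 94.3 CPM, those labelled siRNA A 4463 ± 279 and the siRNA B ones 3962 ± 295, and the mitochondrial sums were 643 ± 45.3, 408 ± 26.6 and 377 ± 30.7 CPM (SD, n = 3 each). On this scale the cytosolic sum with siRNA A lay within 1 SD of control and the mitochondrial sum lay below control in both. IARS2 was the largest part of the mitochondrial sum in control. It had 172, 202 and 168 deposited CPM in control, 82.2, 85.2 and 101 with siRNA A and 46.8, 40.3 and 37.5 with siRNA B. The mitochondrial sums and the ratio of sums therefore lean on that 1 gene more than the geometric means do. No test was run on these sums, since the genes were chosen as a list.

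**Figure D2:**
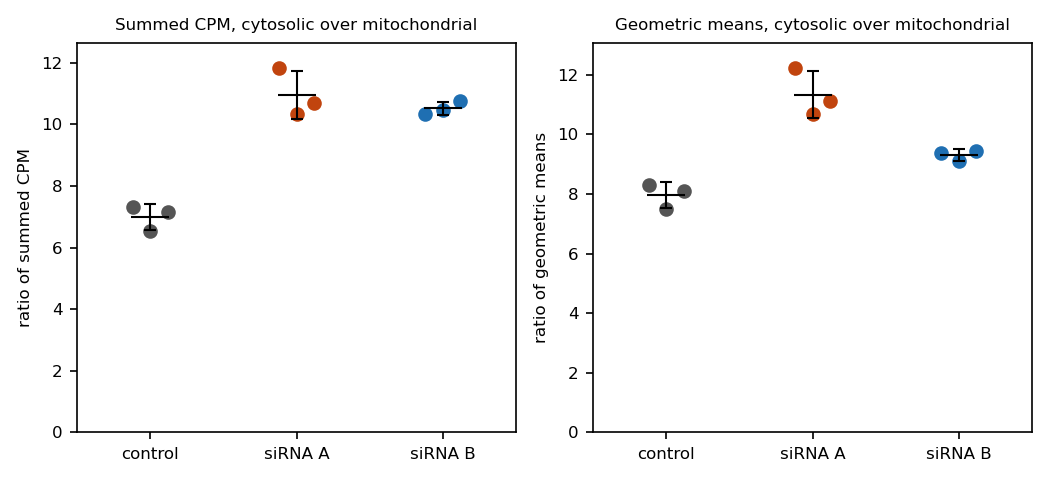
Ratio of cytosolic to mitochondrial synthetase transcripts in each library, from summed CPM on the left and from geometric means on the right; points are libraries and black bars the mean ± SD of 3. All 6 libraries given an SNHG5 siRNA lie above the 3 control libraries, whose ratio of sums is 6.53 to 7.32.

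Before any comparison the sets already differed in abundance. Per kilobase of the canonical transcript, the control level (deposited CPM per kb) of the cytosolic genes ran from 22.7 for CARS1, the cysteine enzyme, to 157 for KARS1, the lysine enzyme, with a median of 72.5. The mitochondrial genes ran from 2.08 for SARS2, the serine enzyme, to 51.2 for IARS2, the isoleucine enzyme, with a median of 9.20, and the scaffold genes had a median of 27.6. SARS2 overlaps another protein-coding gene on its own strand, and how shared reads were counted is not stated, so its level may be understated. Of the 37 pairs of neighbours in this order, 27 overlapped in their 3 control libraries, so most adjacent ranks cannot be told apart. The gap between KARS1 and GARS1, the glycine enzyme, did not overlap: KARS1 lay between 150.1 and 163 CPM per kb and GARS1 between 116 and 132. The reads behind the values ranged from 52 for SARS2 to 11380 for IARS1, each in a single library.

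**Figure D3:**
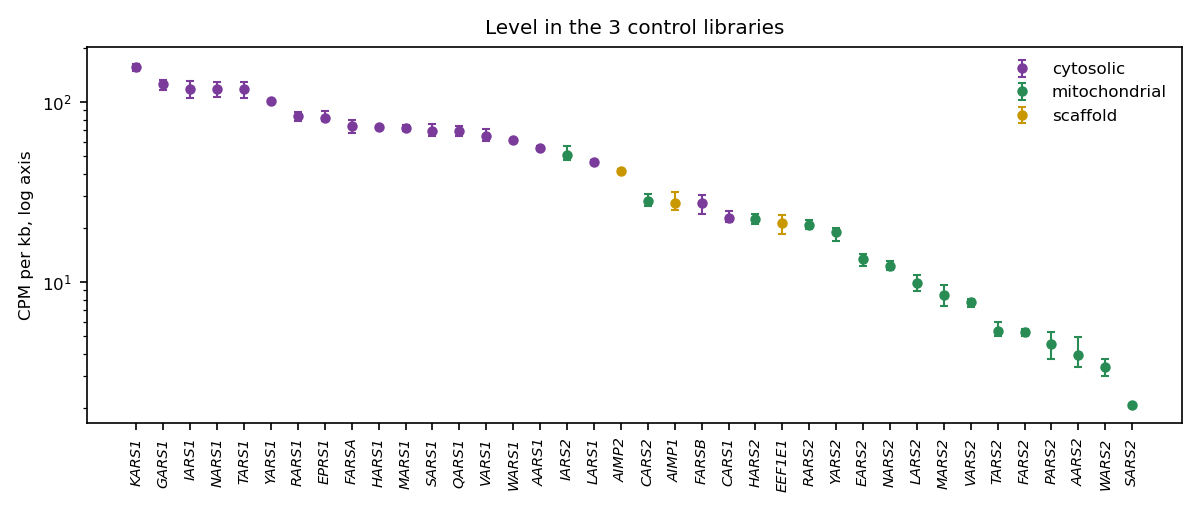
Level of each gene in the control libraries in CPM per kb of canonical transcript on a log axis, in falling order (points are means of 3 libraries, bars run from the lowest to the highest). Cytosolic enzymes (purple) fill the upper ranks from KARS1 at 157 and mitochondrial enzymes (green) the lower ones down to SARS2 at 2.08, with IARS2 among the cytosolic enzymes.

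Of the 38 genes, 5 rose with both siRNAs: YARS1, GARS1, MARS1, TARS1 and FARSB. All 5 are in the cytosolic list, although GARS1 also gives the mitochondrial enzyme. The share of all genes called with both siRNAs was not counted, so calls shared by the siRNAs are listed here without a background. YARS1, the tyrosine enzyme (ENSG00000134684.6, GRCh37 chr1:33240838-33283632, minus strand), had 218, 206 and 226 scaled CPM in the control libraries, 392, 381 and 398 in those labelled siRNA A and 279.6, 251 and 271 in those labelled siRNA B. The 3 groups did not overlap, and control was lowest and siRNA A highest. Its rise was log2 fold change 0.85, SE 0.091, adjusted p = 2.61e-05 with siRNA A and log2 fold change 0.30, SE 0.091, adjusted p = 0.0232 with siRNA B.

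GARS1, the glycine enzyme of both compartments (ENSG00000106105.9, GRCh37 chr7:30620149-30673649, plus strand), had 283, 238 and 284 scaled CPM in the control libraries, 493, 444 and 480.3 in those labelled siRNA A and 355, 309 and 348 in those labelled siRNA B. The groups were ordered as for YARS1, again without overlap. The change was log2 fold change 0.82, SE 0.11, adjusted p = 9.71e-05 for siRNA A and log2 fold change 0.33, SE 0.11, adjusted p = 0.0323 for siRNA B. MARS1, which charges methionine and so also serves initiation (ENSG00000166986.8, GRCh37 chr12:57869228-57911352, plus strand), had 184, 172 and 175 scaled CPM in the control libraries, 289.7, 296 and 278 in those labelled siRNA A and 240.3, 209 and 226 in those labelled siRNA B. Again no library of one group reached into another, and MARS1 rose with log2 fold change 0.70, SE 0.091, adjusted p = 9.53e-05 for siRNA A and log2 fold change 0.35, SE 0.091, adjusted p = 0.0127 for siRNA B. MARS1 overlaps DDIT3 on the other strand, a stress-response transcription factor gene of the ATF4 pathway that itself rose (log2 fold change 0.94 and 1.58), and whether reads were assigned by strand is not stated.

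TARS1, the threonine enzyme (ENSG00000113407.9, GRCh37 chr5:33440802-33468196, plus strand), had 282, 237 and 312 scaled CPM in the control libraries, 429, 348 and 425 in those labelled siRNA A and 363, 365 and 368 in those labelled siRNA B. Both siRNA groups lay above control but overlapped each other, with log2 fold change 0.53, SE 0.12, adjusted p = 0.00341 for siRNA A and log2 fold change 0.41, SE 0.12, adjusted p = 0.0231 for siRNA B. FARSB encodes the beta subunit of the phenylalanine enzyme (ENSG00000116120.8, GRCh37 chr2:223431618-223520811, minus strand). It had 166, 173 and 147 scaled CPM in the control libraries, 193, 213 and 189.6 in those labelled siRNA A and 233, 221 and 229.6 in those labelled siRNA B, so that siRNA B was here the higher group. The values were log2 fold change 0.30, SE 0.097, adjusted p = 0.0232 with siRNA A and log2 fold change 0.49, SE 0.097, adjusted p = 0.00243 with siRNA B. FARSA, the alpha subunit of the same enzyme, did not follow: with siRNA A it did not pass (log2 fold change −0.13, adjusted p = 0.279), and with siRNA B it fell (log2 fold change −0.46, SE 0.093, adjusted p = 0.00293).

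Several of these calls were lost when 1 library was left out, which also leaves fewer libraries in its group. The log2 fold changes of YARS1, GARS1 and TARS1 with siRNA B stayed positive in the leave-out fits named next. They ran from 0.23 (GARS1 without control replicate 2) to 0.41 (TARS1 without siRNA B replicate 1). With siRNA B the rises of YARS1, GARS1 and TARS1 missed the threshold without control replicate 2 (adjusted p = 0.0913, 0.142 and 0.109), without siRNA B replicate 1 (0.0956, 0.119 and 0.0644) and without siRNA B replicate 3 (0.0677, 0.091 and 0.0566). YARS1 missed it also without control replicate 1 (0.0529), and MARS1 without siRNA B replicate 1 (0.065). The rise of FARSB with siRNA A missed it without control replicate 3 (0.106) or siRNA A replicate 2 (0.0762). With library totals alone, FARSB with siRNA A changed sign (−0.072) and the 5 rises with siRNA B were no longer called.

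The largest rises with siRNA A were those of YARS1, GARS1, SARS1 and MARS1. SARS1, the serine enzyme, whose product also feeds selenocysteine synthesis (ENSG00000031698.8, GRCh37 chr1:109756540-109780804, plus strand), had 127, 107 and 113 scaled CPM in the control libraries, 202, 188 and 175 in those labelled siRNA A and 119, 95.3 and 124 in those labelled siRNA B. Only the siRNA A group stood apart. Its change was log2 fold change 0.70, SE 0.12, adjusted p = 0.00053 for siRNA A and log2 fold change −0.039, SE 0.12, adjusted p = 0.829 for siRNA B, and the difference between the siRNAs passed the test as well (log2 fold change 0.74, SE 0.12, adjusted p = 0.000689).

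A further 3 cytosolic genes rose with siRNA A and not with siRNA B. EPRS1, the joint enzyme for glutamate and proline, rose by 0.53 on the log2 scale (adjusted p = 0.00176), KARS1 by 0.47 (adjusted p = 0.00186) and NARS1, the asparagine enzyme, by 0.36 (adjusted p = 0.0199). With siRNA B their log2 fold changes were 0.041, 0.093 and 0.14, and none passed. The difference between the siRNAs passed for EPRS1 (log2 difference 0.49, adjusted p = 0.0047) and KARS1 (0.38, adjusted p = 0.0104) but not for NARS1 (0.22, adjusted p = 0.154). NARS1 missed the threshold when 1 library was left out: control replicate 2 (adjusted p = 0.0676), control replicate 3 (0.0771), siRNA A replicate 1 (0.0728) or siRNA A replicate 3 (0.0728). With library totals alone EPRS1 and KARS1 were not called against control, NARS1 changed sign (−0.0095), and the KARS1 difference between the siRNAs did not pass (0.22, adjusted p = 0.123). 

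AARS1 and LARS1 were called in opposite directions by the siRNAs. AARS1, the alanine enzyme (ENSG00000090861.10, GRCh37 chr16:70285886-70323610, minus strand), had 169.6, 158 and 178 scaled CPM in the control libraries, 111, 125 and 116 in those labelled siRNA A and 243, 267 and 233 in those labelled siRNA B. No group overlapped another: siRNA A was the lowest and siRNA B the highest. AARS1 fell with siRNA A (log2 fold change −0.52, SE 0.097, adjusted p = 0.000946) and rose with siRNA B (log2 fold change 0.55, SE 0.097, adjusted p = 0.00126), and siRNA A against siRNA B gave log2 fold change −1.07, SE 0.097, adjusted p = 2.53e-05. Both calls against control and their directions held under every alternative run, including library totals alone.

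LARS1, the leucine enzyme and a leucine sensor of the mTORC1 pathway (ENSG00000133706.13, GRCh37 chr5:145490129-145562259, minus strand), had 191, 192 and 200.1 scaled CPM in the control libraries, 238, 238 and 262 in those labelled siRNA A and 156, 160.4 and 166 in those labelled siRNA B. The groups did not overlap. It rose with siRNA A (log2 fold change 0.34, SE 0.088, adjusted p = 0.00749) and fell with siRNA B (log2 fold change −0.27, SE 0.088, adjusted p = 0.0334), with a difference between the siRNAs of log2 fold change 0.61, SE 0.088, adjusted p = 0.000372. The fall with siRNA B missed the threshold without any 1 of the 6 libraries concerned: without control replicates 1, 2 and 3 the adjusted p was 0.0633, 0.0605 and 0.107, and without siRNA B replicates 1, 2 and 3 it was 0.103, 0.056 and 0.0588. The log2 fold change in these fits ran only from −0.25 (without control replicate 3) to −0.29 (without siRNA B replicate 3). With library totals alone the siRNA A value turned to −0.032.

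**Figure D4:**
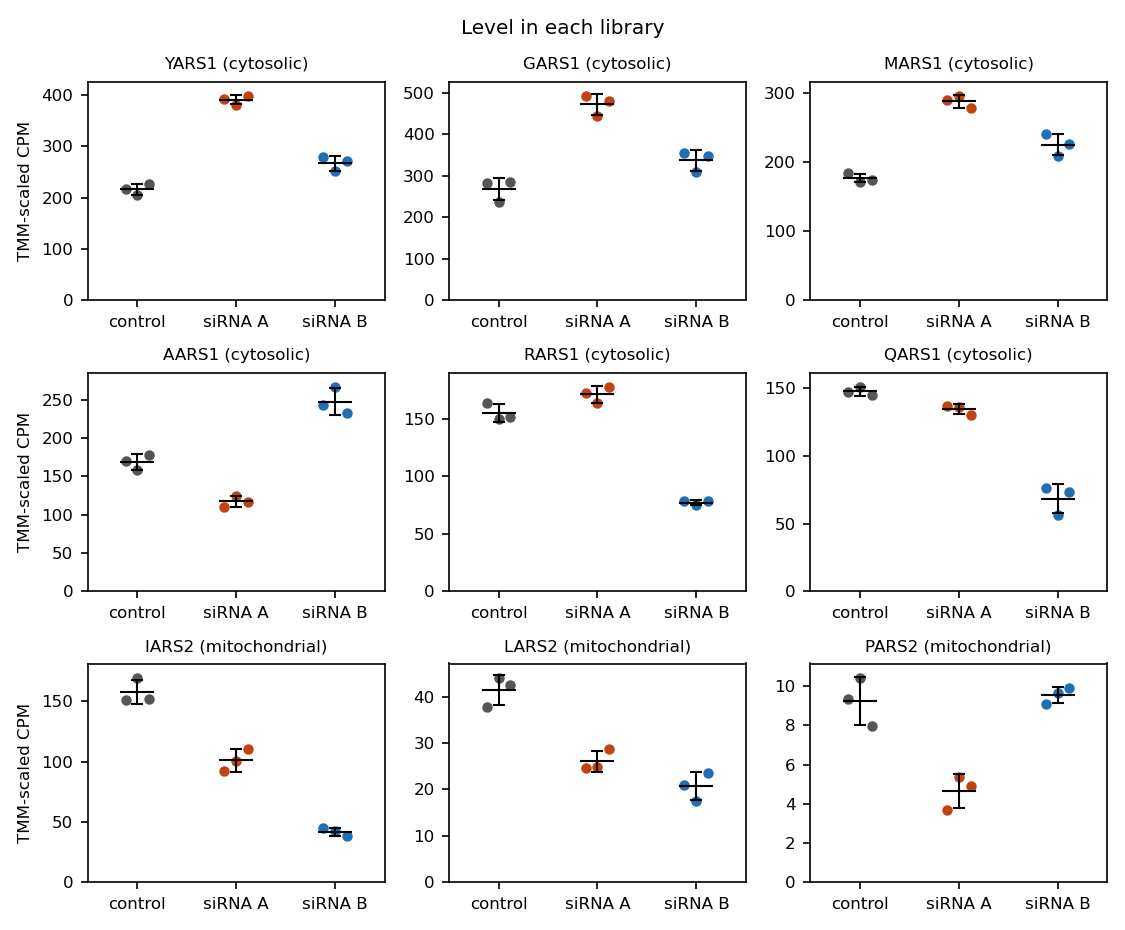
TMM-scaled CPM of 9 of the genes in each library (points), with the mean ± SD of 3 libraries in black; vertical axes start at 0 and differ between panels. The top row shows genes that rose with both siRNAs, the middle row AARS1 (opposite directions) and RARS1 and QARS1 (lower with siRNA B), and the bottom row mitochondrial IARS2 and LARS2 (lower with both) and PARS2 (lower with siRNA A).

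The falls among cytosolic genes lay mainly in the libraries labelled siRNA B. QARS1, the glutamine enzyme (ENSG00000172053.10, GRCh37 chr3:49133365-49142563, minus strand), had 147, 151 and 145 scaled CPM in the control libraries, 137, 136 and 130.3 in those labelled siRNA A and 75.9, 56.3 and 73.1 in those labelled siRNA B. The siRNA B libraries stood well below the other 6, with log2 fold change −1.11, SE 0.11, adjusted p = 4.41e-05. With siRNA A QARS1 did not pass (log2 fold change −0.13, adjusted p = 0.352), and siRNA A against siRNA B gave log2 fold change 0.98, SE 0.11, adjusted p = 9.73e-05. 

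RARS1, the arginine enzyme (ENSG00000113643.4, GRCh37 chr5:167913456-167946306, plus strand), had 164, 149.9 and 152 scaled CPM in the control libraries, 172, 163 and 178 in those labelled siRNA A and 78.3, 75.1 and 78.1 in those labelled siRNA B. Again the siRNA B libraries alone were low, while siRNA A and control overlapped. The fall with siRNA B was log2 fold change −0.997, SE 0.087, adjusted p = 1.46e-05, siRNA A against control did not pass (log2 fold change 0.14, adjusted p = 0.196), and the siRNAs differed by log2 fold change 1.14, SE 0.087, adjusted p = 9.36e-06. QARS1 and RARS1 are both members of the multi-synthetase complex. VARS1, the valine enzyme outside that complex, fell as well with siRNA B (log2 fold change −0.77, SE 0.098, adjusted p = 0.000166).

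WARS1, the tryptophan enzyme (ENSG00000140105.11, GRCh37 chr14:100800127-100843142, minus strand), had 144, 137 and 146 scaled CPM in the control libraries, 123, 100.2 and 118 in those labelled siRNA A and 85.7, 60.9 and 76.6 in those labelled siRNA B. Control was above both siRNA groups, and siRNA B was the lowest. WARS1 fell with siRNA B (log2 fold change −0.94, SE 0.13, adjusted p = 0.000252) and with siRNA A (log2 fold change −0.33, SE 0.13, adjusted p = 0.048). The call with siRNA A was near the threshold: it was lost with edgeR (adjusted p = 0.0503), DESeq2 (0.0548) and without the low-value filter (0.0513), and without control replicate 1, 2 or 3 (0.0977, 0.068 and 0.12), siRNA A replicate 2 or 3 (0.163 and 0.0729) or siRNA B replicate 3 (0.0569). CARS1, HARS1 (the histidine enzyme) and IARS1 (the isoleucine enzyme) passed in neither comparison with control, although CARS1 was higher with siRNA A than with siRNA B (log2 difference 0.58, adjusted p = 0.0133). That CARS1 difference missed the threshold without siRNA A replicate 1 (0.0521) or 3 (0.0569), and without siRNA A replicate 2 CARS1 passed against control (log2 fold change 0.40, adjusted p = 0.0394).

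Mitochondrial genes that fell with both siRNAs were IARS2, LARS2 and FARS2. IARS2, the mitochondrial isoleucine enzyme (ENSG00000067704.8, GRCh37 chr1:220267474-220321383, plus strand), had 151, 169 and 152 scaled CPM in the control libraries, 92.3, 100.1 and 111 in those labelled siRNA A and 45.2, 42.4 and 38.2 in those labelled siRNA B. The groups did not overlap and siRNA B lay lowest. Its fall was log2 fold change −0.64, SE 0.11, adjusted p = 0.000437 with siRNA A and log2 fold change −1.89, SE 0.11, adjusted p = 6.74e-07 with siRNA B, the latter the largest change of any of the 38 genes, and the siRNAs differed by log2 fold change 1.25, SE 0.11, adjusted p = 1.6e-05.

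LARS2, the mitochondrial leucine enzyme (ENSG00000011376.5, GRCh37 chr3:45430053-45596218, plus strand), had 37.6, 44 and 42.5 scaled CPM in the control libraries, 24.5, 24.9 and 28.6 in those labelled siRNA A and 21.1, 17.6 and 23.5 in those labelled siRNA B. Every siRNA library was below every control library, with log2 fold change −0.65, SE 0.13, adjusted p = 0.0012 for siRNA A and log2 fold change −0.97, SE 0.13, adjusted p = 0.000183 for siRNA B. FARS2, the single-chain mitochondrial phenylalanine enzyme (ENSG00000145982.6, GRCh37 chr6:5261277-5829425, plus strand), had 7.97, 7.69 and 7.65 scaled CPM in the control libraries, 4.37, 4.08 and 4.77 in those labelled siRNA A and 4.56, 4.25 and 5.17 in those labelled siRNA B. The siRNA groups overlapped each other and lay below control, with log2 fold change −0.70, SE 0.12, adjusted p = 0.000615 for siRNA A and log2 fold change −0.63, SE 0.12, adjusted p = 0.00212 for siRNA B. These FARS2 values rest on 54 to 200 reads a library. The 6 falls of IARS2, LARS2 and FARS2 held under every alternative run.

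PARS2, the mitochondrial proline enzyme (ENSG00000162396.5, GRCh37 chr1:55222571-55230196, minus strand), had 9.36, 10.4 and 7.96 scaled CPM in the control libraries, 3.68, 5.36 and 4.93 in those labelled siRNA A and 9.08, 9.67 and 9.89 in those labelled siRNA B. Only the siRNA A libraries were low, while siRNA B and control overlapped. PARS2 fell with siRNA A (log2 fold change −0.86, SE 0.15, adjusted p = 0.000532) but not with siRNA B (log2 fold change 0.048, SE 0.15, adjusted p = 0.83), and the siRNAs differed by log2 fold change −0.91, SE 0.15, adjusted p = 0.000692. TARS2, the threonine enzyme, and EARS2, the glutamate enzyme, also fell with siRNA A (log2 fold change −0.42, adjusted p = 0.012, and −0.34, adjusted p = 0.0139), and their values with siRNA B were −0.22 and −0.20, neither called. EARS2 missed the threshold without control replicate 3 (0.0572) or siRNA A replicate 1 (0.0515). YARS2, the tyrosine enzyme, fell with siRNA B (log2 fold change −0.65, SE 0.15, adjusted p = 0.00701), and its value with siRNA A, −0.35, did not pass (adjusted p = 0.0739). Between the siRNAs none of these 3 genes differed past the threshold (adjusted p = 0.218 for TARS2, 0.277 for EARS2 and 0.148 for YARS2).

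VARS2, the valine enzyme, was the 1 mitochondrial gene that rose against control, with siRNA A (log2 fold change 0.42, SE 0.14, adjusted p = 0.0265). This call was lost without control replicate 2 or 3 (adjusted p = 0.0652 and 0.077), without siRNA A replicate 1, 2 or 3 (0.0502, 0.0774 and 0.0502) and with library totals alone (0.771), and VARS2 did not pass between the siRNAs (log2 difference 0.33, adjusted p = 0.0801). MARS2, the mitochondrial methionine enzyme (ENSG00000247626.3, GRCh37 chr2:198570093-198573119, plus strand), had 19.6, 24.6 and 23 scaled CPM in the control libraries, 24.5, 45.2 and 27.2 in those labelled siRNA A and 17.2, 18 and 14 in those labelled siRNA B. The siRNA A libraries were uneven, with replicate 2 far above the others. Against control MARS2 did not pass with siRNA A (log2 fold change 0.47, SE 0.20, adjusted p = 0.0678) or with siRNA B (log2 fold change −0.43, SE 0.20, adjusted p = 0.114), but the siRNAs differed (log2 fold change 0.90, SE 0.20, adjusted p = 0.0046). The remaining mitochondrial genes AARS2, CARS2, HARS2, NARS2, RARS2, SARS2 and WARS2 passed in neither comparison with control on the TMM scale.

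The labels give replicate numbers but state no pairing. Same-numbered libraries were more alike than unlike-numbered ones only for control and siRNA A, so a pairing by replicate number is uncertain. A model that blocks on that number across all 9 libraries let 4 more genes pass with siRNA A: AIMP1 (log2 fold change 0.32, adjusted p = 0.0132), MARS2 (0.47, adjusted p = 0.0156), YARS2 (−0.35, adjusted p = 0.0268) and CARS2 (−0.29, adjusted p = 0.0288). The mitochondrial count with siRNA A was then 2 higher and 8 lower. 

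Of the scaffold genes, AIMP2 (ENSG00000106305.5, GRCh37 chr7:6048886-6063465, plus strand) had 43.4, 42.5 and 44.8 scaled CPM in the control libraries, 37.9, 33.8 and 33.4 in those labelled siRNA A and 45.7, 42.9 and 47.5 in those labelled siRNA B. The siRNA A libraries lay below the other 6. AIMP2 fell with siRNA A (log2 fold change −0.31, SE 0.096, adjusted p = 0.0176), which missed the threshold when control replicate 3 (adjusted p = 0.0612) or siRNA A replicate 3 (0.0573) was left out, and its value with siRNA B was 0.055 (adjusted p = 0.694). EEF1E1 rose with siRNA A (log2 fold change 0.51, SE 0.17, adjusted p = 0.0271), and this call was lost without control replicate 2 or 3 (0.0704 and 0.0955), without siRNA A replicate 1 or 3 (0.105 and 0.074) and with library totals alone (0.517). AIMP1, the third scaffold, did not pass with siRNA A (log2 fold change 0.32, adjusted p = 0.0644) or siRNA B (0.11, adjusted p = 0.572). Across the 10 genes listed as members of the multi-synthetase complex (these scaffolds with EPRS1, IARS1, KARS1, LARS1, MARS1, QARS1 and RARS1), 5 rose and 1 fell with siRNA A (median log2 fold change 0.33) and 1 rose and 3 fell with siRNA B (median 0.048). Among the 12 cytosolic enzymes outside it, 6 rose and 2 fell with siRNA A (median 0.26) and 5 rose and 3 fell with siRNA B (median 0.056). Over all genes 24.0% rose and 27.5% fell with siRNA A, and 15.5% and 18.4% with siRNA B, and the 1 rise in the complex with siRNA B lies below that share.

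Cytosolic and mitochondrial enzymes for the same amino acid can be set side by side in 17 pairs, in which EPRS1 is paired with both EARS2 and PARS2 and FARS2 with both FARSA and FARSB. The log2 fold change of the cytosolic gene was above that of its mitochondrial partner in 14 pairs with siRNA A (median difference 0.51) and in 10 pairs with siRNA B (median difference 0.17). The pairs are not separate observations, because they share libraries and some share genes. For isoleucine the ratio of IARS1 to IARS2 (deposited CPM within a library, not divided by length) was 2.75, 2.92 and 3.19 in control, 5.15, 5.16 and 4.81 with siRNA A and 11.1, 11.8 and 12.2 with siRNA B. The 3 groups of ratios were separate. IARS1 itself was called in neither comparison with control.

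For tyrosine the ratio of YARS1 to YARS2 was 5.85, 5.88 and 6.95 in control, 14.2, 16.8 and 12.5 with siRNA A and 11.6, 14.5 and 10.9 with siRNA B. Both siRNA groups lay above control and overlapped each other. For tryptophan and valine the order was inverted. The ratio of WARS1 to WARS2 was 15.7, 19.6 and 17.1 in control, 12.8, 11.6 and 11.8 with siRNA A and 8.59, 6.56 and 6.43 with siRNA B, each siRNA group below control. Histidine gave no separation: HARS1 over HARS2 was 2.56 ± 0.167 in control, while siRNA A had 2.77 ± 0.501 and siRNA B 2.56 ± 0.517 (SD, n = 3), and these genes lie head to head with overlapping starts on chromosome 5. Protein-coding genes on the other strand also overlap AARS1 (DDX19B), KARS1 (TERF2IP), WARS1 (WDR25), YARS1 (S100PBP), CARS2 (ING1), EARS2 (UBFD1), YARS2 (DNM1L), AIMP1 (TBCK) and AIMP2 (EIF2AK1), so their reads cannot be told apart from those of the partner if strand was not used. On the same strand, protein-coding genes overlap SARS2 (ENSG00000269547), EEF1E1 (EEF1E1-BLOC1S5), HARS1 (DND1), HARS2 (ZMAT2) and EARS2 (GGA2), where strand would not separate shared reads.

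**Figure D5:**
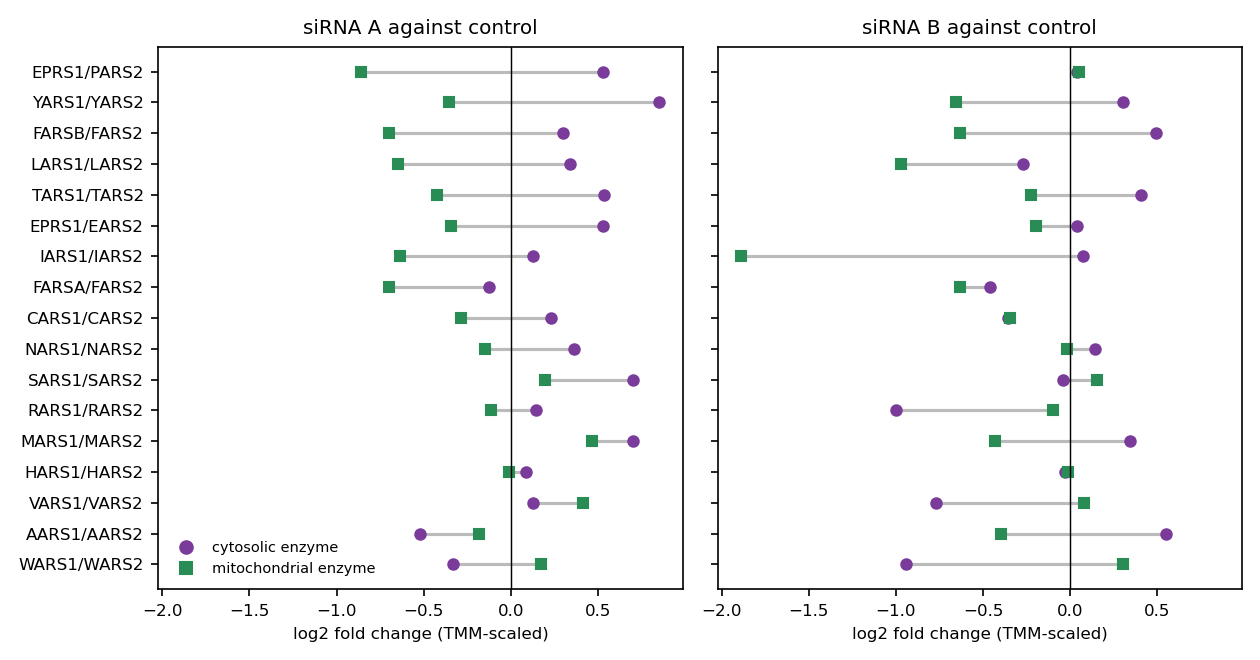
Log2 fold change against control (TMM-scaled) of the cytosolic (purple circles) and mitochondrial (green squares) enzyme for the same amino acid, joined by a grey line, with siRNA A on the left and siRNA B on the right in the same order. The circle lies to the right of the square in 14 of 17 pairs with siRNA A and in 10 of 17 with siRNA B; the longest line with siRNA B is IARS1/IARS2.

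The direct comparison of the siRNAs separated the compartments as well. Of the cytosolic genes 13 were higher and 1 lower with siRNA A than with siRNA B (median log2 difference 0.49), and of the mitochondrial genes 2 were higher and 1 lower (median 0.021), against 17.8% of all genes higher and 19.3% lower (median −0.012). The 13 were CARS1, EPRS1, FARSA, GARS1, KARS1, LARS1, MARS1, QARS1, RARS1, SARS1, VARS1, WARS1 and YARS1, and AARS1 was the lower one. The mitochondrial genes were IARS2 and MARS2 (higher) and PARS2 (lower), and of the scaffolds EEF1E1 was higher and AIMP2 lower. Without siRNA A replicate 1, FARSA (adjusted p = 0.0666) and EEF1E1 (0.0614) were not called. With library totals alone the cytosolic count fell from 13 to 9, as CARS1 (adjusted p = 0.0757), FARSA (0.241), KARS1 (0.123) and MARS1 (0.172) missed the threshold, and EEF1E1 missed it too (0.074).

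Promoter sequences were examined because 13 of the 19 cytosolic genes were listed as ATF4 targets from general knowledge. Of these 13, 8 rose and 2 fell with siRNA A (median log2 fold change 0.36) and 5 rose and 3 fell with siRNA B (median 0.075). Of the 6 not listed, 2 rose and 0 fell with siRNA A (median 0.11) and 1 rose and 3 fell with siRNA B (median −0.25). Over all genes 24.0% rose and 27.5% fell with siRNA A, and 15.5% and 18.4% with siRNA B, so the rises among the genes not listed were near the background. Their falls were not: 3 of 6 with siRNA B lay above that share and 0 of 6 with siRNA A below it. The 3 falls among the 13 listed genes with siRNA B were near the background. The core of the C/EBP-ATF response element, TGATGNAA on either strand, was sought in RefSeq windows from 250 bases before to 50 bases after each start (GRCh38.p14). It occurred in 3.62% of all 35116 windows, or 4.46% of 27305 genes. Windows existed for 33 of the 38 genes, all but LARS1, VARS1, YARS1, AARS2 and VARS2. The core occurred in 7 of 16 cytosolic genes (43.8%), in 1 of 14 mitochondrial genes and in 0 of 3 scaffold genes. The 8 matches are shown with the matching bases in capitals, 5′ to 3′ on the gene's strand, placed on GRCh37 by exact match.
MARS1 (chr12:57881836-57881865, plus strand): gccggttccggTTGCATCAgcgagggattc
GARS1 (chr7:30634450-30634479, plus strand): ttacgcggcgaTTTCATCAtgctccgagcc
TARS1 (chr5:33441062-33441091, plus strand): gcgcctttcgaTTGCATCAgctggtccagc
NARS1 (chr18:55289036-55289065, minus strand): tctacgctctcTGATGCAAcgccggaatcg
AARS1 (chr16:70323578-70323607, minus strand): ttttctcgcagTTGCATCAgccaagttaga
CARS1 (chr11:3078637-3078666, minus strand): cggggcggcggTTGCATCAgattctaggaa
IARS1 (chr9:95055974-95056003, minus strand): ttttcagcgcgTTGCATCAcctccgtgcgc
YARS2 (chr12:32909010-32909039, minus strand): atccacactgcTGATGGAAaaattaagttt

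The 7 cytosolic matches were all in genes listed as ATF4 targets, but 10 of the 16 cytosolic genes with a window were listed. EPRS1, SARS1 and WARS1 are listed and have a window without the core. The list came from general knowledge of ATF4 targets, so list and core may not be independent. In 6 of the 7 the core was on the strand opposite to the gene, and NARS1 was the exception. The core began within 33 bases of the RefSeq start in MARS1, TARS1, CARS1, IARS1, NARS1 and GARS1, while those of AARS1 and YARS2 began at −187 and −197 relative to it. That start is not always the outer end of the gene span given above: the MARS1 and GARS1 windows lie well inside their spans. Of the 7 cytosolic genes with the core, 4 rose (GARS1, MARS1, NARS1 and TARS1) and 1 fell (AARS1) with siRNA A, and 4 rose (AARS1, GARS1, MARS1 and TARS1) and 0 fell with siRNA B. Of the 9 with a window but no core, 4 rose (EPRS1, FARSB, KARS1 and SARS1) and 1 fell (WARS1) with siRNA A, and 1 rose (FARSB) and 4 fell (FARSA, QARS1, RARS1 and WARS1) with siRNA B. With siRNA A the genes with and without the core thus had the same counts of rises and falls. Background shares were 24.0% higher and 27.5% lower with siRNA A, and 15.5% and 18.4% with siRNA B. The part of the core in these changes was not tested. An E-box, CACGTG, occurred in IARS1, CARS2, EARS2, MARS2 and AIMP2, against 8.77% of all genes with a window, and the palindrome CGCATGCG of the NRF1 motif occurred in MARS2, against 2.46% of those genes. A match says only that these letters are in the window.

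The other genes around tRNA charging were taken from lists. Among 12 tested charging partners, 4 rose and 3 fell with siRNA A (over all genes 24.0% and 27.5%), and 1 rose and 2 fell with siRNA B (15.5% and 18.4%), shares near the background. PSTK, which phosphorylates seryl-tRNA for selenocysteine, rose with siRNA A (log2 fold change 0.85, adjusted p = 0.000613), whereas SEPSECS, the next enzyme on that route, fell (−0.71, adjusted p = 0.000886). TARS3, a further threonine enzyme, fell with both (−0.71 and −0.52), and MTFMT, which formylates mitochondrial initiator methionyl-tRNA, rose with both (0.40 and 0.51). As deposited, without TMM, MTFMT in each siRNA group overlapped control.

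Downstream of charging, 5 of 7 tested elongation factor genes rose and 0 fell with siRNA A, and 4 rose and 0 fell with siRNA B, against 24.0% and 15.5% of all genes higher. Among these rises, EEF1D and GFM1 with siRNA A overlapped control as deposited, without TMM. EEF1A1, which carries charged tRNA to the ribosome, rose with both (log2 fold change 1.62 and 1.10), although its 3 siRNA A libraries were uneven at 685, 1194 and 677 scaled CPM and near-identical copies can take its reads. TUFM, its mitochondrial counterpart, rose with siRNA A (0.63, adjusted p = 0.00042) and stood at −0.071 with siRNA B (adjusted p = 0.63), and the siRNAs differed (log2 difference 0.70, adjusted p = 0.000408).

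In the list of the ATF4 response, 16 of 31 tested genes rose and 1 fell with siRNA A (median 0.33), and 11 rose and 3 fell with siRNA B (median 0.22), against 24.0% of all genes higher and 27.5% lower with siRNA A and 15.5% and 18.4% with siRNA B. ATF4 itself rose with both (log2 fold change 0.63, adjusted p = 0.00385, and 0.92, adjusted p = 0.000633). As deposited, without TMM, its siRNA A libraries (273, 219 and 223 CPM) overlapped control (222, 183 and 192), while its siRNA B libraries lay above control. ATF3, a stress-induced transcription factor gene, rose by 2.53 and 1.34, SLC7A11, the cystine transporter, by 1.75 and 0.94, and CEBPB, a partner of ATF4, by 1.48 and 0.94 on the log2 scale. PSAT1, of serine synthesis, and ASNS, asparagine synthetase, rose with siRNA A (1.15 and 1.08) and were higher with siRNA A than with siRNA B (adjusted p = 6.87e-05 and 0.00429), while PHGDH, the first enzyme of serine synthesis, fell with siRNA B (−1.45, adjusted p = 0.000114). Other enzymes of the list did not share this order: PSPH, also of serine synthesis, and MTHFD2, of mitochondrial folate metabolism, were lower with siRNA A than with siRNA B (adjusted p = 0.00758 and 0.0394), and GPT2, CTH and PYCR1 did not pass between the siRNAs (0.0864, 0.514 and 0.0597). The part of ATF4 in the synthetase changes was not tested.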

How the data were processed

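HCT116 RNA purified with oligo-dT was read as single ends of 50 bases. The authors deposited 1 table of CPM values, read counts of genes expressed per library total on a common base. The submitters' processing notes name TopHat2, HTSeq and the builds GRCh37 and hg19, and the use of strand is not given in the sources used here. Every deposited CPM value was a whole multiple of 1 read (100% of values within 0.01 reads), so reads and totals were recovered. At 1 CPM a library held 15.6 to 23.3 reads. The floor of 3 reads was 0.129 to 0.193 CPM, which covers counting error only.

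Gene IDs were matched without version to GENCODE on GRCh37, the source of the coordinates. Of the 15354 rows, 14871 matched. CPM was divided by TMM factors (edgeR 4.0.16) and tested as log2(CPM + 1) with limma 3.58.1 in R 4.3.3, with a variance trend, all 9 libraries in 1 model and Benjamini-Hochberg adjustment over 13893 genes. A fold change on this scale understates that of low genes. The test had been planned for this unit and was run on simulated data first. Alternatives were library totals alone, a pseudocount of 0.1, no filter, edgeR quasi-likelihood and DESeq2 1.42.0 on the recovered reads, a replicate block and leaving out each library. Plots and sequence searches used Python 3.11.15, numpy 2.4.6, pandas 2.3.3 and matplotlib 3.10.9.

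Libraries of a group correlated across genes with r from 0.983 to 0.994 and differed beyond sampling noise. Deviations from the group means of same-numbered control and siRNA A libraries correlated with r of 0.65, 0.41 and 0.13, each above the unlike-numbered pairs of those groups. Unlike-numbered libraries of control and siRNA B reached as much (control replicate 1 and siRNA B replicate 3, r of 0.68). A pairing by number is therefore uncertain, and the block was run only as an alternative.

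The genes and the lists of partners, elongation factors, ATF4 targets and markers were chosen with earlier results of these data known. Full values were given for genes called in 1 direction with both siRNAs (at most 8), in opposite directions, or among the 4 largest called rises or falls of a comparison, and list examples were among the 5 largest called changes, apart from ATF4, ASNS, PSAT1, MTFMT, PSPH, MTHFD2, GPT2, CTH, PYCR1, the overlapping DDIT3 and the siRNA B values set beside them, chosen after their values were seen. PRORSD1, EEF1G, NUPR1, PTPRC and PECAM1 were not analysed here, and 1 gene of the partner list is not reported here.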

Additional observations from a re-analysis of the deposited data

How the results depend on the processing

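A pseudocount of 0.1 changed no call, and the other main-scale alternatives changed few. Without the low-value filter, with edgeR and with DESeq2, the cytosolic falls with siRNA A numbered 1, and with DESeq2 2 mitochondrial genes were higher. Library totals alone changed more counts than any other alternative run: siRNA A gave 4 cytosolic genes higher and 5 lower and 0 mitochondrial genes higher and 12 lower, siRNA B gave 1 cytosolic gene higher and 9 mitochondrial genes lower, and between the siRNAs 9 cytosolic genes were higher and 2 lower with siRNA A. On that scale the median of all genes itself lay at −0.34 with siRNA A and −0.18 with siRNA B. The share of all genes called there is not given, so these counts have no background beside them. With siRNA A, FARSB (−0.072), LARS1 (−0.032) and NARS1 (−0.0095), called higher on the TMM scale, then turned negative, as did HARS1 (−0.28, then called) and the uncalled CARS1, IARS1, RARS1, VARS1, SARS2, WARS2 and AIMP1. With siRNA B the uncalled EPRS1, IARS1, KARS1, NARS1, PARS2, SARS2, VARS2, AIMP1 and AIMP2 did so. The cytosolic median minus the mitochondrial median, 0.53 with siRNA A, 0.25 with siRNA B and 0.47 between the siRNAs, was 0.52, 0.24 and 0.45 with totals alone.

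Leaving out 1 library at a time gave with siRNA A 8 to 10 cytosolic genes higher and 1 to 2 lower, and 0 to 1 mitochondrial genes higher and 5 to 8 lower. With siRNA B it gave 2 to 6 cytosolic genes higher, 5 to 7 lower and 4 to 6 mitochondrial genes lower, the lowest count of 2 without siRNA B replicate 1. Between the siRNAs 11 to 13 cytosolic genes were higher with siRNA A. Some genes not called with all 9 libraries passed: without siRNA A replicate 2, CARS1 (adjusted p = 0.0487), AARS2 (0.0389) and MARS2 (0.0255) were lower with siRNA B and AIMP1 (0.0278) higher with siRNA A. With siRNA A, MARS2 passed without siRNA A replicate 1 (0.025), AIMP1 without control replicate 1 (0.0204), YARS2 without siRNA A replicate 3 (0.0413) or siRNA B replicate 2 (0.0306) and CARS2 without siRNA B replicate 2 (0.0341). With siRNA B, CARS2 passed without siRNA B replicate 3 (0.0466), and LARS2 then differed between the siRNAs (0.0387).

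With the replicate block, 2 mitochondrial genes were higher with siRNA A, and 7 rather than 4 were lower with siRNA B, where AARS2, CARS2 and MARS2 passed, as they also did with totals alone. Same-numbered control and siRNA B libraries (r of 0.17, 0.44 and −0.39) and siRNA A and B libraries (0.20, 0.44 and 0.02) were not taken as pairs. The r of 0.44 for the replicate 2 libraries of control and siRNA B is above the 0.41 for those of control and siRNA A. The block spans all 9 libraries, so its siRNA B calls rest on numbers not taken as pairs. Low genes limit the rest: SARS2 rested on 52 to 91 reads a library.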
